A study of Mus musculus with 9 samples.

Results

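The genes that write and erase cytosine methylation were followed in mouse embryonic stem cells with and without the histone deacetylase gene Sirt6. The 9 members were taken by symbol from the deposited count table: the DNA methyltransferase genes Dnmt1, Dnmt3a, Dnmt3b and Dnmt3l, the maintenance partner Uhrf1, the dioxygenase genes Tet1, Tet2 and Tet3, and the glycosylase gene Tdg. All 9 were found among 23366 rows. The 3 wild-type and 3 Sirt6 knockout libraries were made from total RNA of cells of strain 129 SvJae F1 at passage 21, cultured with serum and leukaemia inhibitory factor (LIF). Another group, wild-type cells deprived of glucose, is listed with 3 samples and was not analysed here. The labels do not name the clones, how Sirt6 was removed, or whether replicates were separate cultures, so p-values cover the variation among these samples alone, and that variation may be technical.

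In mammals, DNMT3A and DNMT3B place new methyl groups on cytosines in CpG dinucleotides, and DNMT3L, which has no catalytic activity of its own, stimulates them. UHRF1 recognises the half-methylated DNA left by replication and brings in DNMT1, which copies the mark to the new strand. TET1, TET2 and TET3 oxidise methylcytosine, and TDG excises the more oxidised forms so that repair can restore an unmodified cytosine. Embryonic stem cells are known for high TET1 and TET2, for expression of DNMT3L, and for surviving without DNA methylation.

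Transcripts of both sides of this cycle differed between the groups, in opposite directions. The genes of new methylation (Dnmt3a, Dnmt3b and Dnmt3l) rose in the knockout, the 3 TET genes fell, and the maintenance genes Uhrf1 and Dnmt1 fell by less. In all, 8 of the 9 members had enough counts to be tested, and edgeR's quasi-likelihood test called 3 of them higher and 5 lower in the knockout (adjusted p threshold 0.05). This count has to be read against the whole table, in which 55.7% of 14988 tested genes passed, 27.9% higher and 27.8% lower. The groups did not overlap in CPM (counts scaled to a common library size) for any of the 8 tested members, against 63.2% of all tested genes. In bulk RNA, a change in the number of cells of one kind and a change in RNA per cell cannot be told apart. Total counts ran from 20107037 to 29267115 per library. Sirt6 itself had 341 to 348 counts in the wild-type libraries and 6 to 12 in the knockout libraries.

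**Figure D1:**
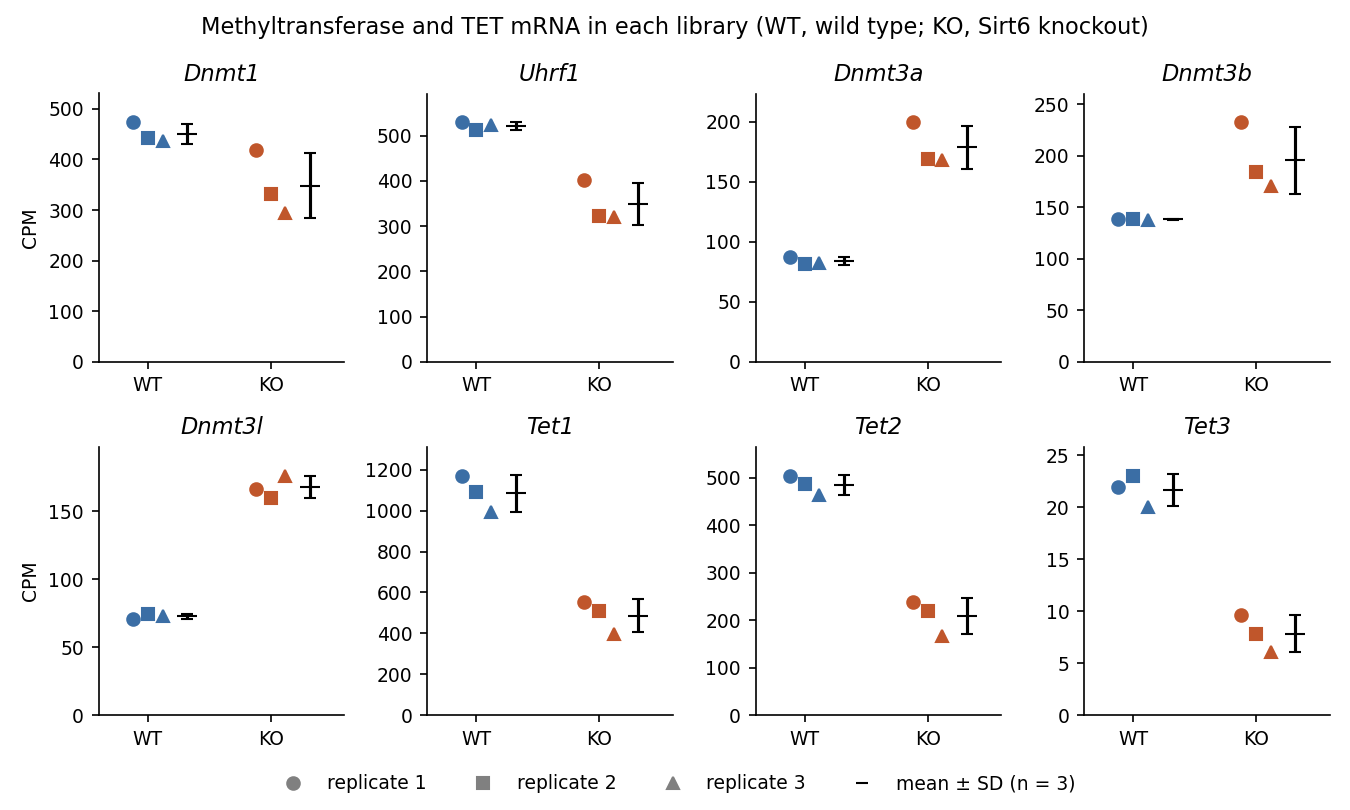
CPM of the 8 tested genes in each library, one panel per gene with its own axis from 0; symbols mark replicates, and the bar at the right of each group is the mean ± SD (n = 3). The knockout libraries lie above all wild-type libraries for Dnmt3a, Dnmt3b and Dnmt3l and below them for the other 5 genes.

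Among the genes of new methylation, Dnmt3l had the largest rise. Wild-type replicates 1 to 3 held 70.9, 74.4 and 72.9 CPM, and knockout replicates 1 to 3 held 166, 160 and 176 CPM. The lowest knockout library was thus more than 2 times the highest wild-type library. The fitted log2 fold change was 1.20 ± 0.09 (SE), a 2.31-fold rise with an edgeR adjusted p of 1.73e-06. Dnmt3a, one of the catalytic enzymes, stood at 87.7, 81.9 and 82.2 CPM in wild type. In the knockout it stood at 200, 169 and 168 CPM, with replicate 1 above the others. It rose 2.13-fold, by 1.09 ± 0.10 on the log2 scale (edgeR adjusted p = 7.69e-06).

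Dnmt3b, the other catalytic enzyme, rose less. Its wild-type libraries were nearly level at 139, 138 and 137 CPM, while the knockout libraries were spread over 232, 184 and 170 CPM. The log2 fold change was 0.50 ± 0.12, a 1.42-fold rise (edgeR adjusted p = 0.00435), and 0.37 without knockout replicate 1. Of all tested genes, 23.0% had a higher log2 fold change than Dnmt3b, against 10.4% for Dnmt3l and 11.6% for Dnmt3a. A log2 fold change above 1 was reached by 12.7% of tested genes, so the Dnmt3a and Dnmt3l rises were not rare in size in this comparison. The Dnmt3b transcript shares 11.5% of its 50-base words with the neighbouring gene Dnmt3c, so a part of its counts is uncertain.

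The maintenance pair fell. Uhrf1 stood at 529, 512 and 523 CPM in wild type and at 402, 323 and 320 CPM in the knockout. Its log2 fold change was -0.58 ± 0.11, a 1.5-fold fall (edgeR adjusted p = 0.00132). Dnmt1, the maintenance enzyme, stood at 473, 441 and 437 CPM in wild type and at 419, 332 and 293 CPM in the knockout. Knockout replicate 1 lay close below the wild-type libraries, while replicates 2 and 3 lay well below them. Dnmt1 changed by -0.37 ± 0.13 (log2 ± SE), 1.29-fold lower, at an edgeR adjusted p of 0.0332. This call ended with total counts as scaling (-0.24, adjusted p = 0.189) and when wild-type replicate 1, 2 or 3 or knockout replicate 2 was left out (adjusted p = 0.125, 0.0749, 0.0671 and 0.123). Uhrf1 shares 18.9% of its 50-base words with other transcripts, mostly the pseudogene Gm5648.

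In CPM, each of the 3 TET genes fell to less than 1 in 2 of its wild-type level. With length and GC trends taken out of every library, Tet1 and Tet2 fell by less than that (log2 fold changes of -0.71 and -0.92). Tet1, the most abundant of them by counts, stood at 1172, 1093 and 991 CPM in wild type and at 554, 511 and 396 CPM in the knockout. Tet2 stood at 505, 488 and 463 CPM in wild type and at 239, 220 and 166 CPM in the knockout. Tet3, the form best known from the zygote and later tissues, was low throughout, at 21.9, 23.1 and 20.01 CPM in wild type and 9.67, 7.82 and 6.06 CPM in the knockout. In each of these genes knockout replicate 3 was the lowest library and replicate 1 the highest of its group. The log2 fold changes were -1.16 ± 0.14 for Tet1, -1.22 ± 0.13 for Tet2 and -1.45 ± 0.16 for Tet3. They correspond to falls of 2.23-fold, 2.33-fold and 2.73-fold, with edgeR adjusted p-values of 4.91e-05, 2.53e-05 and 2.02e-05. A log2 fold change below -1 was found in 9.07% of tested genes, and 6.999%, 6.29% and 4.42% of tested genes lay lower than Tet1, Tet2 and Tet3. In the authors' deposited table the 8 tested members had the same signs as here, with log2 fold changes of -1.14, -1.20 and -1.42 for the TET genes and 1.20, 1.08 and 0.50 for Dnmt3l, Dnmt3a and Dnmt3b.

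**Figure D2:**
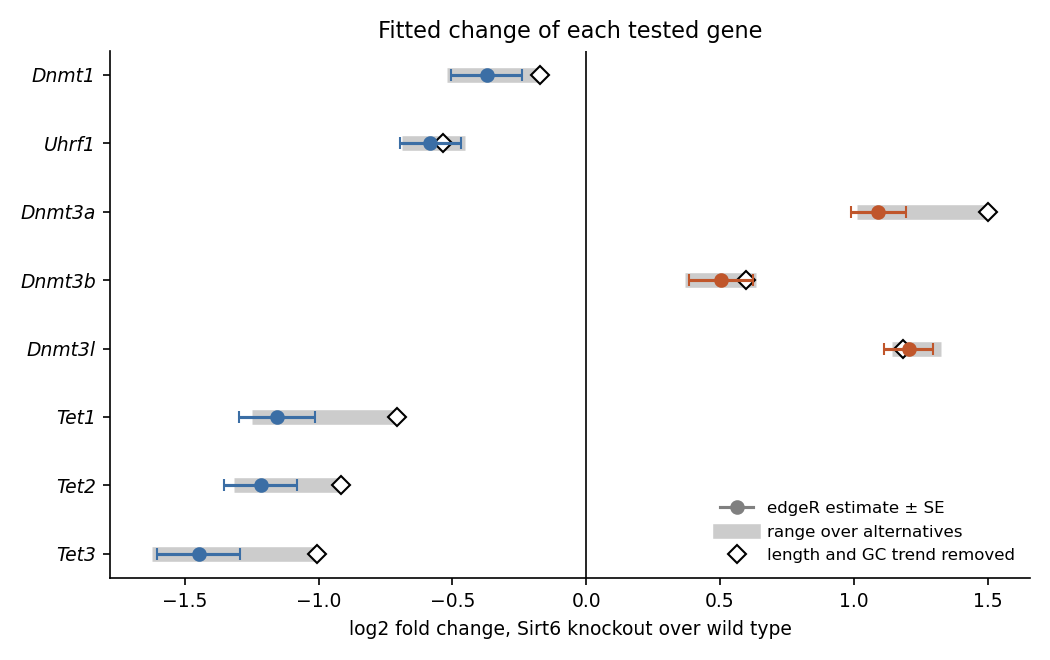
Fitted log2 fold change of each tested gene (x axis; above 0 is higher in the knockout) with its SE, the range over all alternative settings as a grey bar, and, as an open diamond, the value with length and GC trends taken out of every library. No bar crosses 0; Tet1 moves from -1.16 to -0.71 and Dnmt1 from -0.37 to -0.17 when the trend is removed.

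Transcript length moved with the direction of change and is therefore given beside these results. Across 14034 tested genes of known length the correlation was weak (Spearman correlation of -0.115), with the largest shift among the longest transcripts. Among 486 tested genes whose longest coding transcript has at least 9000 bases, the median log2 fold change was -0.39, and 51.0% of them fell. In the 2185 genes under 1500 bases the median was 0.09, and 19.2% fell. The 3 TET transcripts are long, at 14369 bases for Tet1, 9179 for Tet2 and 10904 for Tet3. Among the 486 long genes, 16.5%, 15.4% and 10.9% had a lower log2 fold change than Tet1, Tet2 and Tet3. Dnmt3a is of the same length class (9685 bases) and rose, with 89.7% of the long genes lower than it. Dnmt3l is short (1822 bases), and Dnmt1, Dnmt3b and Uhrf1 lie between (5870, 4320 and 3586 bases).

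The libraries of the knockout also differed from each other along this axis. The long genes stood at a median of 0.21, 0.06 and -0.26 (log2) from their group mean in knockout replicates 1, 2 and 3, and at 0.07, 0.01 and -0.08 in the wild-type replicates. With the length and GC trends taken out of every library, the direction of all 8 tested members and their calls were kept. Tet1, Tet2 and Tet3 were then at -0.71 ± 0.06, -0.92 ± 0.06 and -1.01 ± 0.08 (log2 ± SE). Dnmt1 was at -0.17 ± 0.05 and Uhrf1 at -0.53 ± 0.05. Dnmt3a, Dnmt3b and Dnmt3l were at 1.502 ± 0.07, 0.60 ± 0.05 and 1.18 ± 0.05. The edgeR adjusted p-values of this fit ran from 1.19e-08 for Dnmt3l to 0.0156 for Dnmt1. Whether the length trend arose in the cells or in the libraries was not tested.

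**Figure D3:**
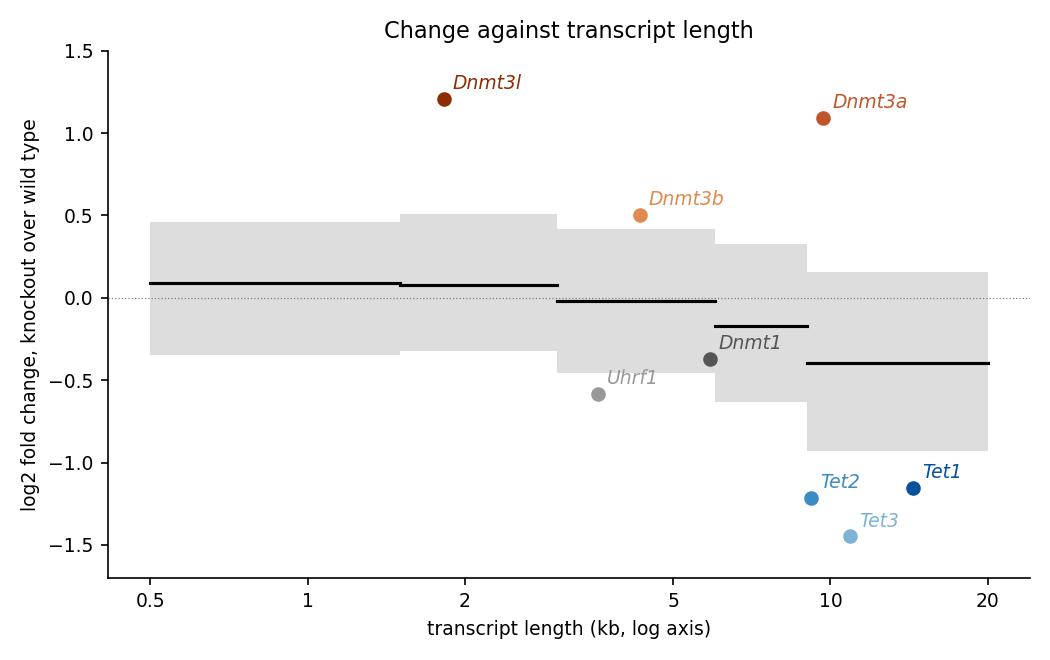
Log2 fold change (y axis) against the length of the longest coding transcript (x axis, log scale) for the 8 tested genes as points; black lines are the medians and grey bands the quartiles of all tested genes in 5 length classes. The median drops to -0.39 in the class of 9000 bases or more, where Tet1, Tet2 and Tet3 lie below the band and Dnmt3a above it.

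The reference sequence before the start of the 3 TET genes is shown because these genes fell together, with Dnmt3b as a gene that rose; each has a single start in the RefSeq promoter table (GRCm38.p6, not the authors' build mm9). Each run holds the 250 bases before the start on the gene's own strand, with CpG dinucleotides, the sites of methylation, in capitals. Tet1 is on the minus strand at chr10:62887325-62887574, Tet2 on the minus strand at chr3:133544391-133544640, Tet3 on the minus strand at chr6:83441679-83441928 and Dnmt3b on the plus strand at chr2:153649199-153649448.
Tet1: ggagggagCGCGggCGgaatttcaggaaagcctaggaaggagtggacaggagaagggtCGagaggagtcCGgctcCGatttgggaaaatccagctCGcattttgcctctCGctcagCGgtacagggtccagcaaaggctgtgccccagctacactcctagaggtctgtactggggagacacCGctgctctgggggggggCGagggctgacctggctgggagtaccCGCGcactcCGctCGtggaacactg
Tet2: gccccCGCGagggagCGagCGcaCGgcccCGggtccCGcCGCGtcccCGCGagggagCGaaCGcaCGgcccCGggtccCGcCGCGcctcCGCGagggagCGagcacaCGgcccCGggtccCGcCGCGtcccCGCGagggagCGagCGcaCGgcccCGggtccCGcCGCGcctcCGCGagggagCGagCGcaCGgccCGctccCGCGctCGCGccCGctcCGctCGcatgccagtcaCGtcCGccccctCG
Tet3: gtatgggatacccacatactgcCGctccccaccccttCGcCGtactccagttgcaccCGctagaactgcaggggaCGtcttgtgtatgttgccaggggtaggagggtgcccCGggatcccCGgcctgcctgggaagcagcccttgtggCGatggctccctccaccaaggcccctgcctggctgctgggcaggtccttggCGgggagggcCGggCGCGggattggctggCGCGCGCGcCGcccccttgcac
Dnmt3b: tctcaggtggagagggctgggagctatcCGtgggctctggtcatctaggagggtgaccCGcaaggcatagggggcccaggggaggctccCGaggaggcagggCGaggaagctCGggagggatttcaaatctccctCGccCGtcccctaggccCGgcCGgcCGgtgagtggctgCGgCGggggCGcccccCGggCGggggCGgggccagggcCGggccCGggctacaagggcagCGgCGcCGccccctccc

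These runs hold 15 CpGs for Tet1, 51 for Tet2, 17 for Tet3 and 21 for Dnmt3b. The median over 32851 promoters of the same length was 6. For Tet2, 99.9% of promoters held fewer CpGs. Of the other members that fell, Dnmt1 has 3 starts in the table with 2, 7 and 26 CpGs and Uhrf1 has 2 with 10 and 30. Of those that rose, Dnmt3a has 3 starts with 38, 40 and 15 CpGs and Dnmt3l has 3 with 5, 4 and 3. Methylation was not measured in these samples. Both strands were searched for the E2F core GCGGGAA, the octamer ATGCAAAT bound by OCT4, the E-box CACGTG and the hypoxia response core ACGTG, which the E-box contains. None of the 4 motifs was found in the runs of Tet1, Tet3 or Dnmt3b, and the run of Tet2 held the hypoxia core, present in 16.6% of all promoters. The E2F core, present in 3.82% of promoters, was found among the members at 1 of the 2 starts of Uhrf1, and the other start of Uhrf1 held the hypoxia core. The E-box, present in 6.02% of promoters, and with it the hypoxia core, was found at 1 of the 3 starts of Dnmt3a, 1 of the 3 starts of Dnmt3l and the start of Tdg. The octamer, present in 1.601% of promoters, was found at no start of a member.

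Tdg could not be followed. Wild-type replicates 1 to 3 gave 2, 2 and 4 counts and the knockout replicates 1, 0 and 2, a sum of 11, which is under the filter for testing. In a GRCm38 transcript set (GENCODE M21), 66.3% of the 50-base words of its longest coding transcript also occur in transcripts of other genes, and 47.4% of its words occur in the processed pseudogene Tdg-ps. The row of the pseudogene Gm9855 held no counts. How reads with several matches were counted is not stated in the labels, so these few counts are not a measure of Tdg RNA. For Dnmt1, Dnmt3a, Dnmt3l, Tet2 and Tet3 no 50-base word was shared with another gene's transcripts. Exons of Tdg, Dnmt3a, Dnmt3l and Tet2 overlap a gene on the opposite strand by 367, 133, 67 and 43 bases.

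Levels were compared between genes as CPM per kilobase of the longest coding transcript. In wild type the order was Uhrf1 (145 ± 2.44 CPM per kilobase, SD, n = 3), Dnmt1 (76.8 ± 3.38), Tet1 (75.5 ± 6.31), Tet2 (52.9 ± 2.28), Dnmt3l (39.9 ± 0.988), Dnmt3b (31.97 ± 0.173), Dnmt3a (8.67 ± 0.340) and Tet3 (1.99 ± 0.141). Dnmt1 and Tet1 overlapped between libraries, and no other neighbours in that order did. In the knockout the order became Uhrf1 (97.1 ± 12.9 CPM per kilobase), Dnmt3l (92.03 ± 4.48), Dnmt1 (59.3 ± 10.9), Dnmt3b (45.3 ± 7.53), Tet1 (33.9 ± 5.68), Tet2 (22.7 ± 4.10), Dnmt3a (18.5 ± 1.86) and Tet3 (0.720 ± 0.165). Uhrf1 overlapped with Dnmt3l, Dnmt1 with Dnmt3b, and Tet2 with Dnmt3a. Dnmt3a has a short form known from stem cells, and these gene-level counts do not separate forms, so its level per length depends on the transcript assumed.

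**Figure D4:**
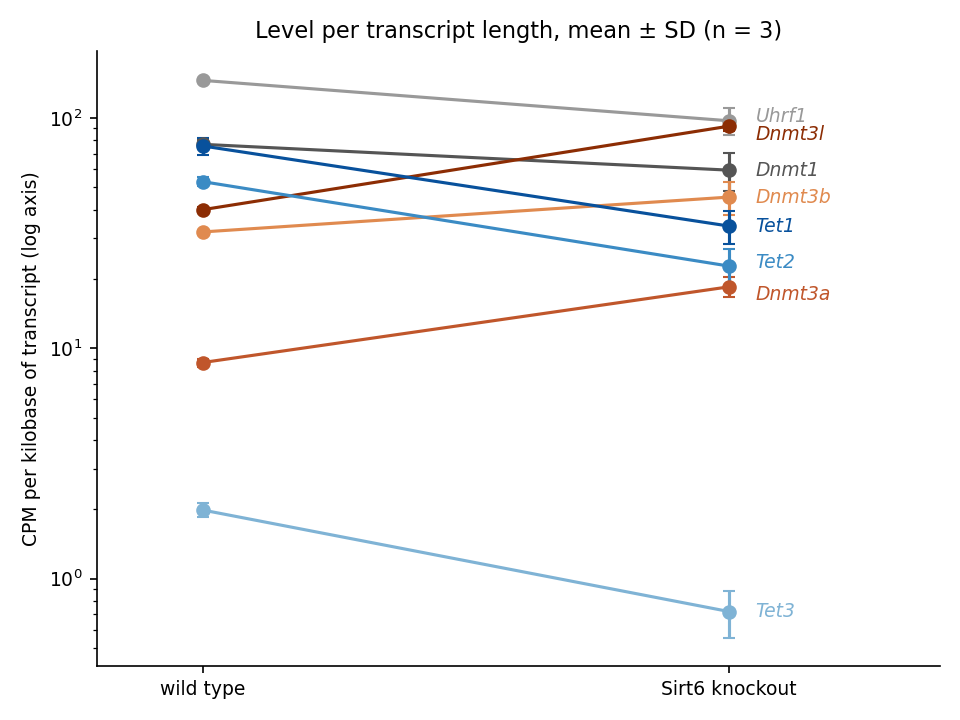
CPM per kilobase of the longest coding transcript (y axis, log scale) in wild type and Sirt6 knockout, mean ± SD (n = 3), one line per gene. Dnmt3l climbs from the fifth place to the second, next to Uhrf1, while Tet1 drops from the third to the fifth.

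The shares of Dnmt1, Dnmt3a and Dnmt3l moved by more percentage points than those of the TET genes. Per kilobase of the longest coding transcript, the share of Dnmt3b moved by fewer points than those of Tet1 and Tet2. From CPM without length, and with merged exons as length, it moved by more than they did. These differences were not tested. Of the summed per-kilobase level of Dnmt1, Dnmt3a, Dnmt3b and Dnmt3l, Dnmt1 made up 48.8% ± 1.22 in wild-type and 27.4% ± 2.77 in knockout libraries (SD, n = 3). The share of Dnmt3l went from 25.4% ± 1.035 to 43.0% ± 4.50 and that of Dnmt3a from 5.51% ± 0.120 to 8.59% ± 0.0995. The share of Dnmt3b was 20.3% ± 0.305 and 21.0% ± 1.66 and overlapped between the groups; computed from CPM without length it was 18.5% and 21.9% and did not overlap. Among the TET genes, Tet1 held 57.9% ± 0.990 and 59.2% ± 0.385 and Tet2 40.6% ± 0.965 and 39.6% ± 0.338. The ratio of Tet1 to Tet2 per kilobase was 1.48, 1.43 and 1.37 in wild type and 1.48, 1.48 and 1.52 in the knockout, so the groups overlapped. Tet3 held 1.52% ± 0.0804 in wild type and 1.25% ± 0.0921 in the knockout.

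Ratios between the enzymes put the opposite changes side by side. Dnmt3a plus Dnmt3b relative to Dnmt1, per kilobase, was 0.510, 0.539 and 0.541 in wild type and 1.044, 1.06 and 1.14 in the knockout. Dnmt3a plus Dnmt3b relative to the 3 TET genes was 0.297, 0.308 and 0.332 in wild type and 1.14, 0.996 and 1.23 in the knockout. Dnmt3l relative to Dnmt3a plus Dnmt3b was 0.945, 1.01 and 0.994 in wild type and 1.23, 1.46 and 1.70 in the knockout. Each of these 3 ratios was higher in every knockout library than in every wild-type library. Uhrf1 relative to Dnmt1 was lower in the knockout, at 1.65 ± 0.119 against 1.90 ± 0.0637 (SD, n = 3). The size of such ratios depends on the lengths assumed: from CPM without length, Dnmt3a plus Dnmt3b relative to the 3 TET genes was 0.140 and 0.537 on average in wild type and knockout, and Dnmt3l relative to Dnmt3a plus Dnmt3b was 0.328 and 0.453. These are transcript ratios, are given as a description with no test, and need not hold for the proteins.

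The tested genes nearest to Tet3 over the 6 libraries, by the distance between centred log2 CPM values, were Zfp704 (distance 0.0903), Gse1 (0.108) and Abl2 (0.119), with log2 fold changes of -1.48, -1.48 and -1.52. Nearest to Tet2 were Mycbp2 (0.0759) and Dock1 (0.0763), with -1.23 and -1.24. Among the members, Tet1 was the nearest to Tet2, at a distance of 0.121, and the distance between Tet2 and Tet3 was 0.346. With 2 groups of 3 libraries these distances mostly reflect the difference between the groups.

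Of all tested genes 27.9% rose and 27.8% fell, and the counts in the partner lists that follow are read against those shares. Partners of the maintenance enzymes were mixed. Of 12 genes for maintenance methylation and protection of imprints, 3 rose and 5 fell, the first near the share of all genes, with a median log2 fold change of -0.26 against 0.01 over all tested genes. Dppa3, which shields the early embryo's maternal genome from demethylation, rose from 3.91 ± 0.485 to 13.5 ± 2.88 CPM (SD, n = 3). Cdca7l, a relative of the chromatin protein gene Cdca7, rose from 21.1 ± 0.231 to 43.7 ± 2.40 CPM, while Cdca7 itself fell from 226 ± 9.45 to 161 ± 3.10 CPM (edgeR adjusted p = 8.66e-04). The replication factor gene 2810417H13Rik fell from 125 ± 7.78 to 54.8 ± 11.9 CPM. Zfp57, which keeps imprints methylated, fell from 468 ± 15.1 to 285 ± 7.54 CPM. The edgeR adjusted p-values of Dppa3, Cdca7l, 2810417H13Rik and Zfp57 ran from 5.58e-06 to 8.74e-05. Uhrf2, the paralog of Uhrf1, also rose, by 0.74 ± 0.10 (log2 ± SE).

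Of 9 genes for readers of methylated DNA 1 rose and 4 fell, with a median of -0.25, beside shares of 27.9% and 27.8% over all tested genes. Zbtb38, a zinc finger protein gene, fell from 44.2 ± 1.85 to 14.3 ± 1.33 CPM, and the methyl-CpG-binding domain genes Mbd6 and Mbd2 fell by 1.18 and 0.65 on the log2 scale. The edgeR adjusted p-values of these 3 ran from 6.36e-07 to 0.000262.

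Among 16 tested genes of base excision repair and TET partners, 7 rose and 2 fell, with a median of 0.17, beside the same 27.9% and 27.8% over all tested genes. Gadd45g, a stress gene tied to demethylation in some systems, rose from 0.463 ± 0.192 to 5.81 ± 0.909 CPM, and Neil3, a glycosylase gene, from 6.17 ± 0.587 to 10.5 ± 1.26 CPM. Parp1, a repair enzyme gene, fell from 919 ± 23.0 to 610 ± 98.3 CPM, and Cxxc5, a CXXC-domain gene related to the DNA-binding part of TET proteins, fell from 64.4 ± 3.12 to 40.6 ± 3.94 CPM. Without wild-type replicate 2 or 3, 4 genes of this list rose, and without knockout replicate 1, 4 fell. The list's edgeR adjusted p-values for the 4 named genes ran from 1.13e-06 to 0.00244.

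The methyl donor cycle showed 2 rises and 4 falls among 9 tested genes, with a median of -0.09. The rises lie near the share of all tested genes (27.9%) and the falls above it (27.8%), a difference of little weight with so few genes. Mat2a, which makes the methyl donor S-adenosylmethionine, fell from 510 ± 4.795 to 341 ± 4.73 CPM. Gnmt, which uses up the methyl donor, rose from a low level, 0.885 ± 0.294 to 3.96 ± 0.284 CPM. Ahcyl1 changed by -0.41 ± 0.10, a call that ended with total counts as scaling (edgeR adjusted p = 0.0604), under which 2 genes of the list fell. Without wild-type replicate 1 or 2, 1 gene of it rose. With all libraries the edgeR adjusted p-values of these 3 ran from 1.88e-05 to 0.00449.

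Germline genes that are kept silent by promoter methylation in somatic cells had the highest median of the 5 partner lists, 1.13. Of 15 tested genes 12 rose, beside 27.9% of all tested genes, and Sycp1, Ddx4 and Hormad1 did not pass (log2 fold changes of -0.27, 0.21 and -0.33). Among the 12, Tex101 had 10, 3 and 3 wild-type counts. It passed the count filter through the knockout libraries alone, so a rise was the only call open to it. Dazl, an RNA-binding protein gene of germ cells, rose from 5.01 ± 0.166 to 31.0 ± 3.92 CPM, and Slc25a31, a mitochondrial carrier gene of the testis, from 1.42 ± 0.167 to 7.27 ± 1.48 CPM. The meiotic chromosome axis gene Sycp3 rose from 3.70 ± 0.355 to 15.7 ± 4.99 CPM, and Mael, of the piRNA pathway, from 11.0 ± 0.122 to 26.4 ± 5.83 CPM. The edgeR adjusted p-values of these 4 ran from 1.32e-07 to 5.72e-05. Rises of germline genes in these libraries were known when the list was written, so it is a description.

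**Figure D5:**
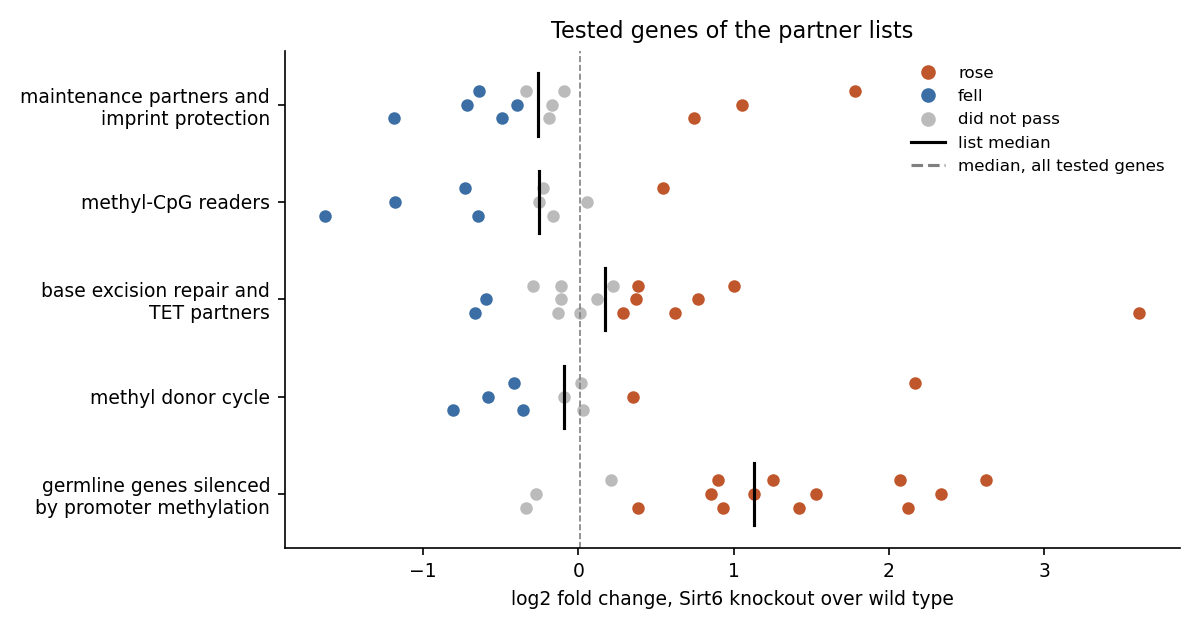
Log2 fold change (x axis) of each tested gene in the 5 partner lists (rows); orange points rose, blue points fell and grey points did not pass at an adjusted p of 0.05, with the list median as a black line and the median of all tested genes dashed. The germline list lies to the right with a median of 1.13, and the other 4 medians lie between -0.26 and 0.17.

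Many markers of cell identity and of the sex chromosomes differed between the groups. The marker counts are read beside the 27.9% of all tested genes that rose and the 27.8% that fell. Of 10 stem cell markers 4 fell, Pou5f1 (1651 ± 133 to 1199 ± 152 CPM), Nanog (365 ± 10.1 to 292 ± 13.2), Klf4 (137 ± 2.82 to 70.2 ± 7.17) and Utf1 (105 ± 4.18 to 67.5 ± 4.74). The 3 that rose were Sox2 (324 ± 23.0 to 428 ± 29.2 CPM), Dppa5a (1212 ± 74.2 to 2054 ± 641) and Tdgf1 (793 ± 46.8 to 1468 ± 104). Zfp42, Esrrb and Fgf4 did not pass (log2 fold changes of -0.04, -0.12 and 0.05). The stem cell rises lie near the share of all tested genes and the falls above it, a difference of little weight with so few genes. The summed level was 5986 to 6603 CPM in wild type and 6410 to 8052 CPM in the knockout, with Dppa5a and Tdgf1 adding to it and Pou5f1 taking from it. All 7 tested endoderm markers of 8 fell, from a sum of 192 to 199 CPM to one of 78.0 to 120 CPM. Lamb1 (93.3 to 67.4 CPM on average) and Col4a1 (79.7 to 25.7 CPM) held most of that sum. Gata6, with 5, 6 and 2 knockout counts, passed the count filter through wild type alone, so a fall was the only call open to it. All 6 tested fibroblast markers of 10 rose, from 4.35 to 5.06 CPM to 32.2 to 40.2 CPM in sum, while Col3a1, Postn, Dcn and Lum were at or near 0. Acta2 (3, 2 and 2 wild-type counts), Col1a2 (1, 2 and 2) and Col6a2 (4, 8 and 6) passed the count filter through the knockout libraries alone. A rise was therefore the only call open to them. Of 8 trophectoderm markers 3 of the 4 tested rose, from 46.9 to 49.0 CPM to 103 to 111 CPM in sum, with Cdx2, Elf5, Gata3 and Hand1 near 0. Their part in the results on the methylation genes was not tested.

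On the Y chromosome, Ddx3y went from 7.74 ± 0.791 to 91.5 ± 9.55 CPM (SD, n = 3), Uty from 7.31 ± 0.534 to 38.1 ± 3.63 CPM and Eif2s3y from 24.8 ± 0.292 to 91.1 ± 14.2 CPM. Kdm5d had no count in wild type and 191 in the knockout. Xist fell from 38.2 ± 6.23 to 4.06 ± 0.662 CPM. Of 506 tested X-linked genes 203 rose and 98 fell, with a median log2 fold change of 0.20, against 0.01 over 13522 autosomal genes. As background, female stem cells with a pair of active X chromosomes are known for low DNA methylation and low DNMT3A and DNMT3B. The labels do not give the sex of these lines, and the number of active X chromosomes was not measured. A difference in sex chromosome transcripts between the lines and the loss of Sirt6 cannot be told apart in these groups.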

How the data were processed

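RNA-seq counts from 3 wild-type and 3 Sirt6 knockout libraries were used; each column name was matched to 1 sample title, which also gave the group. The authors deposited whole-number counts per gene symbol, not normalized. Named in the submitters' processing notes, without their roles, are the build mm9, DESeq2, HTSeq 0.6.1 and TopHat2 2.0.10. The annotation, the strand setting and the treatment of reads with several matches were not given in the sources used here. The authors' other table, per the file headers, lists the mean signal per gene, log2 fold changes and their errors, the test score, and the raw and adjusted p-value.

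All genes were fitted with edgeR 4.0.16 in R 4.3.3 (quasi-likelihood test, two-sided, TMM scaling, a mean per group) after filterByExpr, which left 14988 genes, with Benjamini-Hochberg adjustment and a threshold of 0.05. The SE is the size of the log2 fold change divided by the square root of F. The fit was tested on simulated counts with 200 changed genes and the same dispersion for every gene. It called 76% of genes changed 1.5-fold and 90% of those changed 2-fold, and 3.68% of its calls were unchanged genes. In the real libraries far more genes were called and a length trend was present, so these rates need not hold for them. Lengths and GC content came from GENCODE M21, known for 93.6% of tested genes.

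The members and lists were chosen with earlier results of these data known. Named genes were all members, Sirt6, up to 4 called genes per partner list with the smallest adjusted p, and the 3 genes nearest to the 2 members with the largest change, of which some are not reported here; Uhrf2, Cdca7, the stem cell markers, the genes of the germline list that did not pass and the sex chromosome genes were named after their values were seen. Alternatives were DESeq2 size factors or total counts as scaling, no filter or a mean of 1 CPM, DESeq2 1.42.0, limma-voom (limma 3.58.1), the replicate block, each library left out, and a threshold of 0.01. Chosen after the data were seen were removal of the length and GC trend, library sizes without the ribosomal precursor Rn45s (7.54% to 9.23% of counts in wild type, 3.30% to 4.91% in the knockout), the fit without X-linked and Y-linked genes, and merged exons as length. Replicates of a group differed by more than sampling noise, with chi-square over degrees of freedom of 3.73 or more.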

Additional observations from a re-analysis of the deposited data

How the results depend on the processing

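Over 17 alternatives, the 3 rises and the falls of Uhrf1, Tet1, Tet2 and Tet3 kept their direction and their call, and Dnmt1 kept its direction. The fit without X-linked and Y-linked genes is no check on the sex chromosomes, since all members are autosomal. Dnmt1 lost its call with total counts (-0.24) and at a threshold of 0.01 (-0.37), and ranged from -0.52 to -0.29 with single libraries left out, 4 of which ended the call. Total counts moved the median of all genes by 0.13 (log2), with 5114 genes higher and 3101 lower, against 4182 and 4163 with TMM. Over all genes, between 6986 and 9876 were called with single libraries left out. With the length and GC trend removed, 9481 genes were called.

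The sums behind the shares depend on the length used. From CPM without length, the TET shares in wild type and knockout were 68.1% and 69.3% for Tet1, 30.5% and 29.6% for Tet2 and 1.36% and 1.11% for Tet3, and the DNMT shares were 60.4% and 38.9% for Dnmt1, 11.3% and 20.1% for Dnmt3a, 18.5% and 21.9% for Dnmt3b and 9.77% and 19.0% for Dnmt3l. With merged exons as length they were 56.7% and 58.0% for Tet1, 41.8% and 40.8% for Tet2, 51.8% and 30.7% for Dnmt1, 5.30% and 8.71% for Dnmt3a, 23.1% and 25.2% for Dnmt3b and 19.8% and 35.4% for Dnmt3l. The direction of the difference between the groups was the same under each of these lengths, as it was for the ratios.

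Partner list counts moved by over 1.5 times in a few settings. At a threshold of 0.01, 3 repair genes and 1 methyl donor gene rose; with total counts, 2 methyl donor genes fell. With single libraries left out, 4 to 8 repair genes rose and 2 to 4 fell, 1 to 2 methyl donor genes rose and 0 to 1 germline genes fell. With the trend removed 2 germline genes fell, and with the replicate block 1 did. Without X-linked and Y-linked genes, 0 readers rose, with fewer genes tested. The replicate block raised the calls over all genes to 9352 and changed no member's call. Same-numbered libraries correlated at 0.21, -0.03 and 0.20 in their deviations across genes, and differently numbered ones at -0.22 to 0.03. The labels state no pairing, so the numbers were not taken as pairs. Whether same-numbered libraries shared a step was not tested. With 11 counts in all, Tdg was not tested.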
